A study of Mus musculus with 3 samples.

Results

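The histone cluster genes encode the linker histone H1 and the core histones H2a, H2b, H3 and H4 from 4 gene clusters of the mouse genome. In the deposited annotation, 66 of 48626 loci carried a gene name of these clusters, with 65 gene names among them. Of the 66 loci, 63 contained a RefSeq mRNA, and the other 3 took their name only from a transcript assembled antisense to a histone gene. The series measured total RNA of C57BL/6 heart ventricle from embryos of the stages E10.5 and E13.5 and from adults at 8 weeks (called Adult in the labels), with 1 library for each. The labels give no genetic change or treatment for any library and do not say how many hearts were pooled or of which sex. Expression was given as FPKM, a fragment count corrected for transcript length and library size, and sets of 3 values without stages follow the order E10.5, E13.5, Adult. A single library per stage leaves no measure of replicate error, so no difference was tested.

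Replication-dependent histone genes are transcribed mainly in S phase, when newly made DNA has to be packed into nucleosomes. Core histones H2A, H2B, H3 and H4 form the nucleosome and H1 binds the DNA between nucleosomes. The mRNAs of these genes end just after a conserved stem-loop in place of a poly(A) tail, which the stem-loop binding protein and the U7 small nuclear RNA help to form. Libraries made from total RNA can hold such mRNAs, which selection for poly(A) tails largely removes. Some cluster genes also make polyadenylated mRNAs that run past the stem-loop, as is known from differentiated cells, where division has stopped.

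The 63 loci were made up of 5 for H1, 18 for H2a, 15 for H2b, 11 for H3, 12 for H4 and 2 that joined genes of different families. The largest cluster, Hist1, lay on chromosome 13 (GRCm38/mm10) with 50 of them, in a group of 22 at chr13:21715763-22043610 and a group of 28 at chr13:23531026-23934851. Hist2 held 9 at chr3:96219391-96273542, Hist3 held 3 at chr11:58948911-58959890, and Hist4 held Hist4h4 alone at chr6:136801553-136804431. Among the 63 loci, 5 joined more than 1 gene. They were Hist1h2bn/Hist1h2br, Hist1h2bc/Hist1h2bg and Hist1h4d/Hist1h4h, each within 1 family, and Hist1h1e/Hist1h2be and Hist2h2bb/Hist2h3b, each across families. One assembled transcript of the Hist1h4d/Hist1h4h locus also carried the name Hist1h1d. The value of a joined locus cannot be divided among its genes.

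The libraries were checked against markers of the ventricle and of other cells. The 6 cardiomyocyte markers had a median level of 579 FPKM at E10.5, 1329 by E13.5 and 3706 in adult ventricle. The 3 embryonic globins of primitive red blood cells summed to 6727 FPKM at E10.5, 16305 by E13.5 and 3.05 in adult ventricle. The 4 genes listed as atrial markers summed to 6382, 6766 and 40.9 FPKM in the same order. Sln measured only 21.3, 7.11 and 0.898 FPKM, so the sum came almost wholly from Myl7, Myl4 and Nppa. Whether it came from atrial tissue or from the ventricle itself was not tested. Rmrp and Rpph1, short structured RNAs that take much of a total RNA library, were also highest at E13.5, at 102548 and 78812 FPKM, and lowest in adult ventricle, at 12073 and 2010 FPKM. Among the 3 embryonic globins, only Hbb-y was higher at E13.5 than at E10.5, at 15112 against 4356 FPKM. Hbb-bh1 fell from 1314 to 366 FPKM and Hba-x from 1057 to 827 FPKM between these stages. The globin sum, Hbb-y and both short RNAs therefore had the same order of stages as the summed histone loci described next. Their part in that result was not tested.

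The stem-loop separates these loci from other mRNAs by sequence alone. It has a stem of 6 base pairs and a loop of 4 bases, and was searched on the transcript strand from 100 bases before to 50 after the end of each RefSeq transcript. It was found at 41 of 63 histone loci (65.1%) and at 0 of 20052 other mRNA loci. Within 300 bases before and 100 after the end it was found at 51 histone loci and 2 others. A single form, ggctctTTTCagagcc with the loop in capitals, made up 23 of the 41. The lines below give the stem-loop in capitals with 5 bases on either side for loci that the results turn on, in RNA order on the transcript strand (GRCm38), to show how little the element varied between families.
Hist1h1a, chr13:23764392-23764407, plus strand: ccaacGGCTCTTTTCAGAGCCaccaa
Hist1h2bb, chr13:23747203-23747218, plus strand: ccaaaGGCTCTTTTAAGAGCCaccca
Hist1h2bg, chr13:23571843-23571858, plus strand: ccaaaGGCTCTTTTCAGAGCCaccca
Hist1h3g, chr13:23535889-23535904, plus strand: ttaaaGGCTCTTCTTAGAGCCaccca
Hist1h4a, chr13:23760800-23760815, minus strand: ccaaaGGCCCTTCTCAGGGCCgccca
Hist1h4b, chr13:23757366-23757381, plus strand: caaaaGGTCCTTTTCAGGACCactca
Hist1h4c, chr13:23698089-23698104, minus strand: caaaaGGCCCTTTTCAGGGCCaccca
Hist1h1c, chr13:23739512-23739527, plus strand: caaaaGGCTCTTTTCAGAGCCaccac
The first arm read ggctct in the H1, H2b and H3 examples and ggccct or ggtcct in the H4 examples, with the second arm complementary to it in each. The element printed for Hist1h2bg is of that gene alone, and none was found in the spliced reference transcript of Hist1h2bc, which the assembly joined to it.

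Histone mRNA was abundant in both embryonic libraries and nearly gone from the Adult. The 63 loci summed to 7200 FPKM at E10.5, 15749 by E13.5 and 206 in adult ventricle, which was 2.12%, 3.63% and 0.0622% of the sum over all 20115 mRNA loci. At E13.5, 9 of the 63 were among the 100 highest mRNA loci, against 5 at E10.5 and 0 in adult ventricle. At 1 FPKM or more were 54 loci at E10.5, 52 by E13.5 and 16 in adult ventricle. Of all 20115 mRNA loci, 11296, 11608 and 11160 were at that level. The number of histone loci listed at 0 was 4, 6 and 23 in the same order, and 3 of these were at 0 in all libraries. Over all mRNA loci it was 4646, 3839 and 3253. By an approximate conversion from FPKM, 7 loci rested on 100 fragments or more in adult ventricle and 46 on fewer than 10, so Adult values under 1 FPKM are imprecise. In bulk tissue, fewer cells that make histone mRNA and less histone mRNA per cell cannot be told apart.

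**Figure D1:**
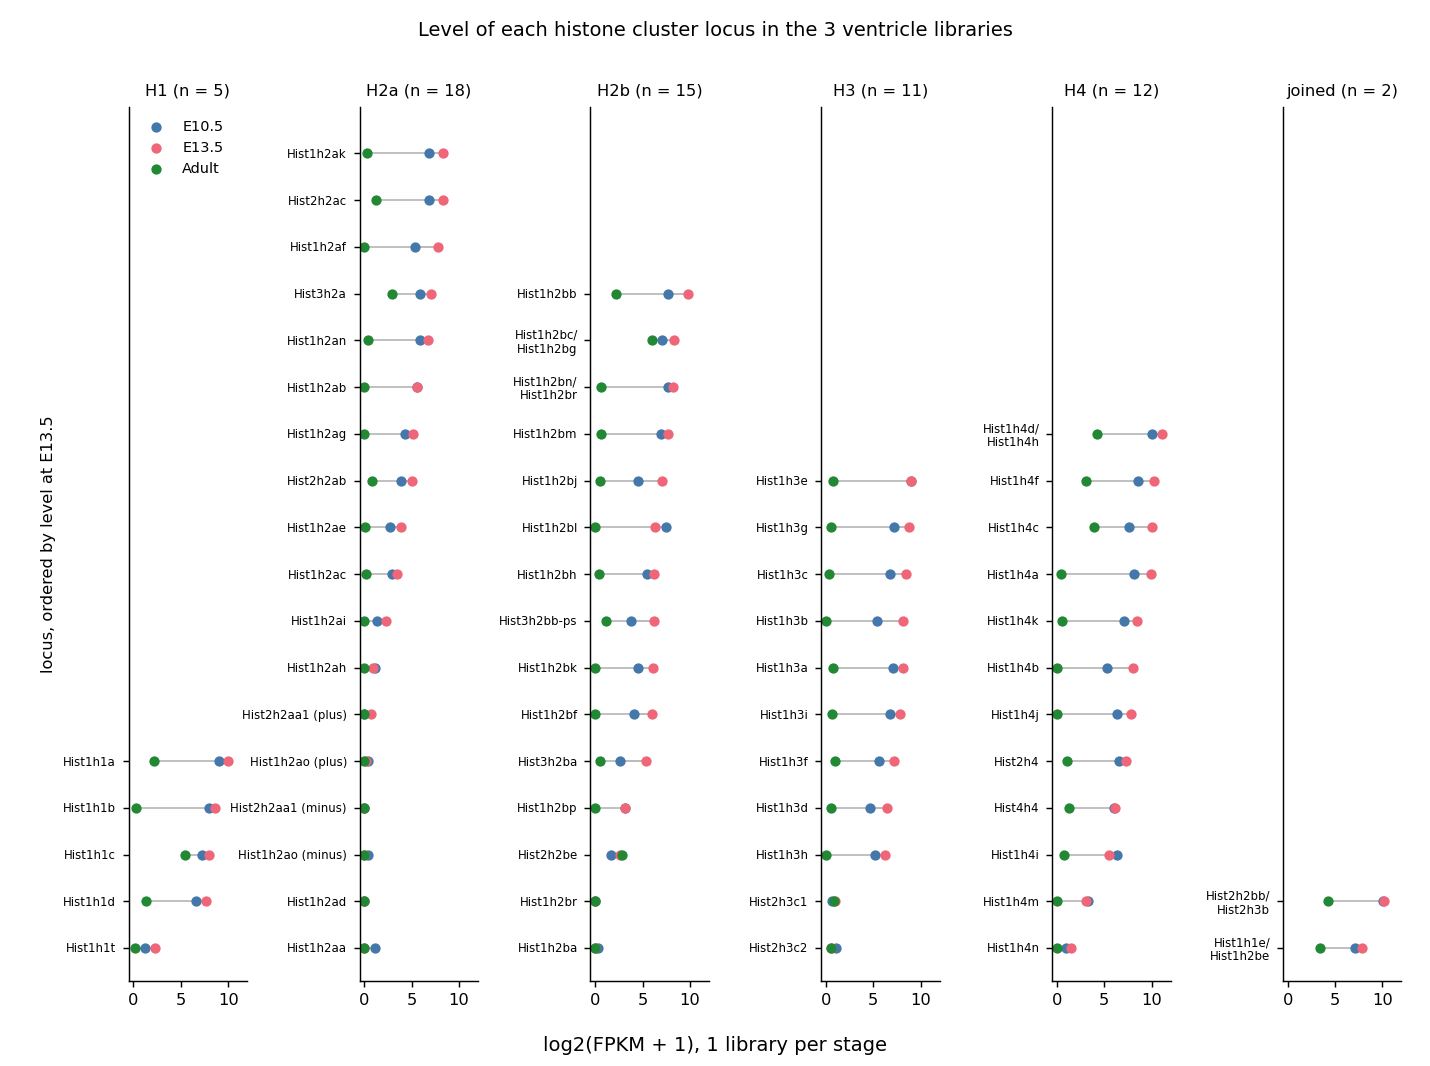
Level of each of the 63 loci as log2(FPKM + 1) on the horizontal axis, with 1 point per library (E10.5 blue, E13.5 red, Adult green) and a panel per family, and with loci ordered by their E13.5 level; the panel named joined holds the 2 loci that join families. Adult points lie near 0 for most loci, with Hist1h2bc/Hist1h2bg at 61.1 FPKM and Hist1h1c at 41.5 FPKM as the highest.

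Changes were taken as differences of log2(FPKM + 1), a scale that understates the change of low loci, and a limit of 2 was used to count them. From E10.5 to E13.5, 8 of 63 histone loci were higher past this limit, where 0.532% of all mRNA loci were, and 0 were lower, where 0.154% of all mRNA loci were. From E10.5 to the Adult, 46 of 63 were lower past the limit (all mRNA loci 5.06%) and 0 were higher (3.49%). From E13.5 to the Adult, 50 of 63 were lower (6.17%) and 0 were higher (2.75%). The median difference of the 63 loci was 0.90 from E10.5 to E13.5, -4.53 from E10.5 to the Adult and -5.91 from E13.5 to the Adult. Over all mRNA loci the medians were 0.02, 0.00 and -0.03. The order of the loci was much alike in both embryonic libraries, with Pearson's r = 0.96 and Spearman's rho = 0.94 of log2(FPKM + 1) over 63 loci, and less so between E13.5 and the Adult (r = 0.47, rho = 0.58). These correlations are across loci that share libraries, clusters and sequence, and describe these libraries only.

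The linker histone genes were high in the embryo and differed most among themselves in adult ventricle. The 5 H1 loci summed to 1006 FPKM at E10.5, 1861 by E13.5 and 46.9 in adult ventricle. Hist1h1a, a linker histone of dividing cells, measured 509, 1014 and 3.53 FPKM. Hist1h1b measured 251, 384 and 0.175 FPKM, and Hist1h1d measured 97.7, 205 and 1.56 FPKM. Both embryonic libraries were thus far above the Adult for these 3 genes, with Hist1h1b at the largest distance. Hist1h1c, a linker histone that many non-dividing tissues keep, measured 147, 255 and 41.5 FPKM. It alone held most of the Adult H1 signal, and its difference of -1.80 from E10.5 to the Adult was the smallest of the H1 loci other than the testis form. Hist1h1t, that testis-specific linker histone, stayed low at 1.37, 3.86 and 0.143 FPKM. Hist1h1e, the remaining H1 gene, was measured only in the locus it shares with Hist1h2be, at 139, 222 and 9.35 FPKM.

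Among the core histones, the H2a loci gave the lowest sum at both embryonic stages, 475 FPKM at E10.5 and 1235 at E13.5, with 9.68 in adult ventricle. Hist1h2ak was the highest at E13.5, with 109, 327 and 0.257 FPKM. Hist2h2ac followed with 115, 313 and 1.28 FPKM. Both had the highest value at E13.5 and were close to or under 1 FPKM in adult ventricle. Hist3h2a kept a higher Adult value, with 58.6, 130 and 6.85 FPKM, and held most of the Adult H2a sum. Hist1h2aa, which with Hist1h2ba is known from testis and oocyte, was listed at 1.13 FPKM at E10.5 and at 0 in the other libraries.

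The H2b loci, without Hist2h2bb and Hist1h2be of the loci joined across families, summed to 982 FPKM at E10.5, 2279 by E13.5 and 74.1 in adult ventricle. Hist1h2bb was the highest at E13.5, with 205, 895 and 3.55 FPKM. The joined Hist1h2bn/Hist1h2br locus measured 204, 300 and 0.506 FPKM. Both were high in the embryonic libraries alone, which was not the pattern of every H2b locus. Hist1h2bc/Hist1h2bg was the highest of all 63 in adult ventricle, with 135, 331 and 61.1 FPKM, so that E13.5 was 5.41 times the Adult against 252 times for Hist1h2bb. Hist2h2be was the only member whose Adult value exceeded E10.5 by more than 1 on the log2 scale, with 2.25, 5.05 and 6.10 FPKM and a difference of 1.13. Its reference transcript was 2618 nt long, and no stem-loop was found in it or in the 50 bases after it. The locus also held an assembled transcript, and its span of chr3:96219391-96224098 takes in the positions of Hist2h2ab and Hist2h2ac. Its value may therefore not be of the Hist2h2be mRNA alone.

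Hist1h2bl was lower at E13.5 than at E10.5, unlike most abundant loci, with 182 FPKM at E10.5, 76.7 by E13.5 and 0 in adult ventricle. Its difference of -1.24 was the lowest of the 63. In the same family, Hist1h2bj was at 22.4, 132 and 0.379 FPKM, with a difference of 2.50. Hist3h2ba measured 5.06, 40.1 and 0.382 FPKM, and Hist3h2bb-ps measured 12.3, 72.1 and 1.26 FPKM. The locus Hist3h2bb-ps is named as a pseudogene and holds a RefSeq mRNA.

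Many H2a and H2b genes start back to back on opposite strands. There were 12 such pairs, with 168 to 335 bases between the start sites. In 9 of them each side was a locus of 1 gene, and in 6 of those both sides were above 0 at E13.5, 3 with the H2b side higher and 3 with the H2a side higher. The sides differed over 10 times in 4 of the 6. Hist1h2ah, Hist1h2ai and Hist1h2an, each a side of 1 of these 4 pairs, shared 93.4%, 82.0% and 83.3% of their 100-base words with other members. The differences in their pairs cannot be told apart from the assignment of reads to similar copies. Beside Hist1h2bl, Hist1h2ai was at 1.60 FPKM at E10.5 and 3.76 at E13.5. Beside Hist2h2ac at 313 FPKM, Hist2h2be was at 5.05 FPKM at E13.5. The nearest in level were Hist3h2a and Hist3h2bb-ps, at 130 and 72.1 FPKM. Of the 7 pairs of loci of 1 gene in which both sides differed between E10.5 and E13.5, 4 differed in the same direction, and with joined loci included 7 of 10 did.

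**Figure D2:**
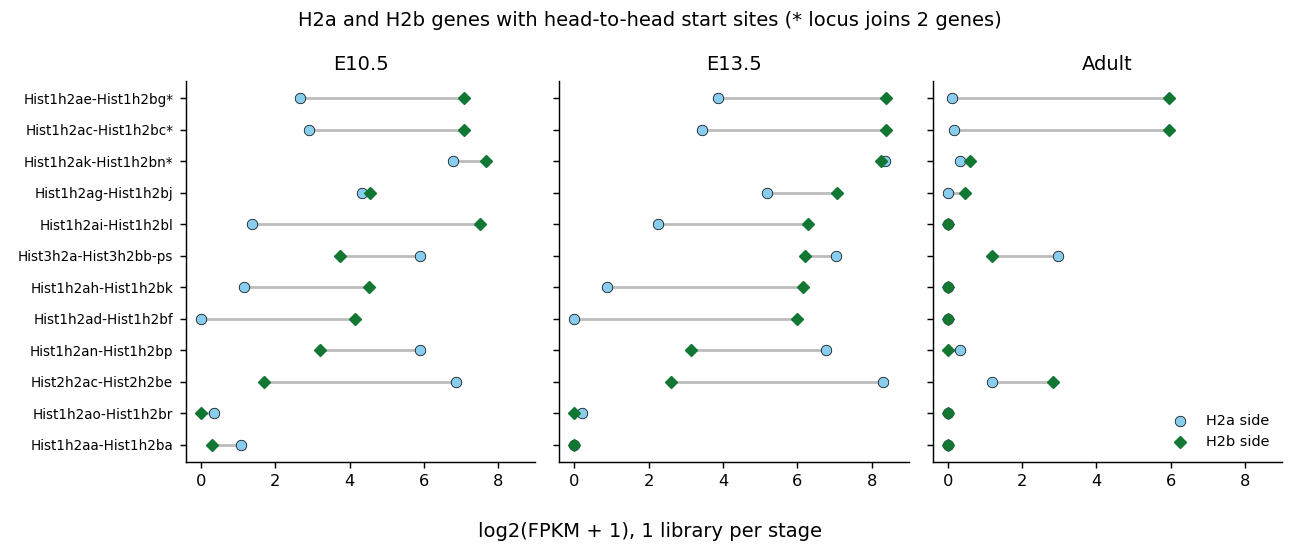
The 12 head-to-head H2a and H2b pairs, with the H2a side as a circle and the H2b side as a diamond at its log2(FPKM + 1) in each library, and with a star where the H2b locus joins 2 genes. The sides of a pair often lie apart, as for Hist2h2ac and Hist2h2be at E13.5 (313 and 5.05 FPKM), whose order is turned in adult ventricle (1.28 and 6.10 FPKM).

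The H3 loci summed to 1126 FPKM at E10.5, 2395 by E13.5 and 5.25 in adult ventricle, so that E13.5 was 456 times the Adult. None of the 11 H3 loci reached 1 FPKM in adult ventricle. Hist2h3b, a further H3 gene, was measured only in the locus it shares with Hist2h2bb, at 1081, 1124 and 17.75 FPKM. The H3 values leave that locus out, so the Adult level of H3 as a whole is not known. Hist1h3e measured 492, 509 and 0.643 FPKM, nearly the same at both embryonic stages. Hist1h3g measured 140, 446 and 0.414 FPKM. Hist1h3b measured 41.1 and 289 FPKM and was listed at 0 in adult ventricle. Its difference of 2.78 from E10.5 to E13.5 was the second largest of all members. The other 2 H3 genes of the Hist2 cluster, Hist2h3c1 and Hist2h3c2, stayed low in all libraries. They measured 0.546, 0.984 and 0.746 FPKM and 1.02, 0.459 and 0.482 FPKM.

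The H4 loci gave the largest sum of a family in both embryonic libraries, 2391 FPKM at E10.5 and 6634 at E13.5, with 42.7 in adult ventricle. Hist1h4d/Hist1h4h led them, with 1024, 2233 and 17.5 FPKM, and ranked 12 among all mRNA loci at E13.5. Hist1h4f measured 388, 1239 and 7.34 FPKM. Hist1h4c measured 200, 1084 and 13.9 FPKM. These 3 loci kept over 5 FPKM in adult ventricle, whereas Hist1h4a did not. Hist1h4a measured 278, 954 and 0.327 FPKM, the largest difference of all members between E13.5 and the Adult at -9.49. Hist1h4b was listed at 36.8, 260 and 0 FPKM, and its difference of 2.79 from E10.5 to E13.5 was the largest of the 63. Hist1h4i was lower at E13.5, with 82.2, 45.4 and 0.633 FPKM. Hist4h4, alone in its cluster, measured 63.1, 67.1 and 1.48 FPKM. The reference transcripts of Hist1h4f, Hist1h4c and Hist1h4a were 312 nt long, against 747 nt for Hist1h1a. FPKM of such short transcripts depends on the length model of the estimate. The order of the families by summed FPKM carries that limit, and the part of length in it was not tested.

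The H4 share of the summed FPKM of the 63 loci was 33.2% at E10.5, 42.1% by E13.5 and 20.8% in adult ventricle, with the same limit of transcript length. The H2b share was 13.6%, 14.5% and 36.0%, and the H1 share was 13.97%, 11.81% and 22.8%. The H2b share leaves out Hist2h2bb and Hist1h2be, and the H1 share leaves out Hist1h1e. These genes were measured only in loci joined across families, so the shares of H2b and H1 as a whole are not known. The H3 share, which leaves out Hist2h3b, was 15.6% at E10.5 and 2.55% in adult ventricle. The 2 loci joined across families summed to 1220, 1346 and 27.1 FPKM, mostly from Hist2h2bb/Hist2h3b at 1081, 1124 and 17.75 FPKM. These shares rest on few loci in adult ventricle, where Hist1h2bc/Hist1h2bg and Hist1h1c together held 49.8% of the sum. The Adult order of families turned without joined loci, when H1 summed to 46.9 FPKM, H4 to 25.2 and H2b to 12.5.

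**Figure D3:**
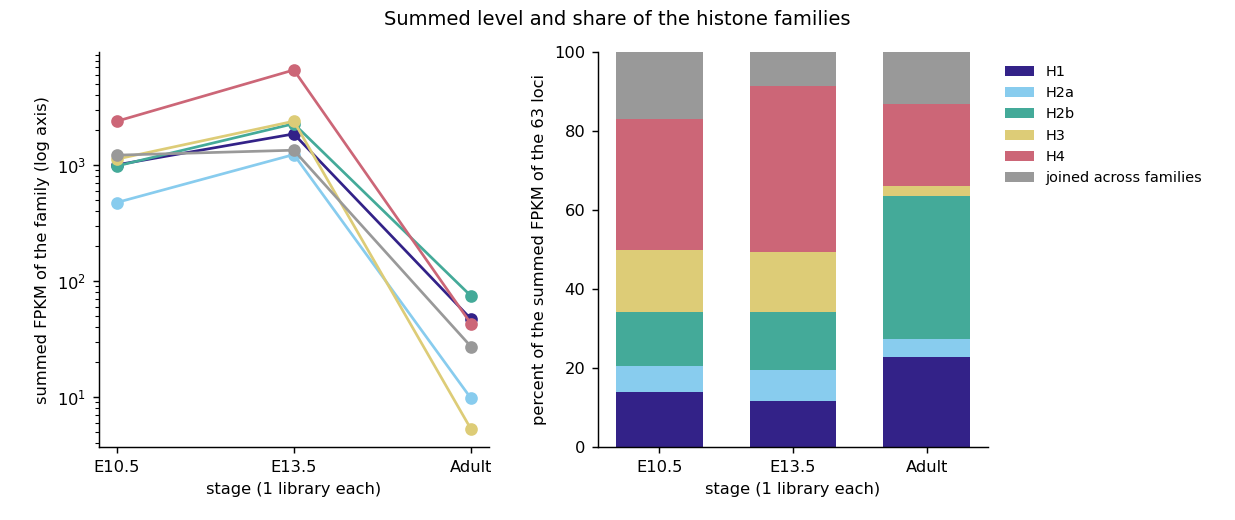
Left, summed FPKM of each histone family at each stage on a log axis; right, the percent of the summed FPKM of the 63 loci that each family held, with 1 library per stage. H4 leads at E10.5 and E13.5 (33.2% and 42.1%), and H2b leads in adult ventricle (36.0%), mostly through the joined Hist1h2bc/Hist1h2bg locus at 61.1 FPKM; without joined loci H1 leads there.

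Between E10.5 and E13.5, 49 of the 63 loci were higher (77.8%, against 52.4% of all mRNA loci), 11 were lower (17.5% against 31.1%) and 3 were listed at 0 in both. Among loci at 1 FPKM or more in a library, 47 of 55 members (85.5%) and 62.9% of mRNA loci were higher. The family medians were 0.99 for H1, 0.76 for H2a, 0.90 for H2b, 1.09 for H3 and 1.23 for H4. All 5 H1 loci were higher, as were 11 of 18 for H2a, 11 of 15 for H2b, 10 of 11 for H3 and 10 of 12 for H4. With loci under 1 FPKM in every library left out, 10 of 13 H2a loci were higher, or 76.9%. The direction of Hist1h3e, Hist2h2bb/Hist2h3b and Hist4h4 turned to lower when the libraries were rescaled by median-of-ratios or to equal mRNA sums, and that of no other member did. The 8 past the limit were Hist1h4b, Hist1h3b, Hist3h2ba, Hist1h2bj, Hist3h2bb-ps, Hist1h2af, Hist1h4c and Hist1h2bb. Hist1h2af was listed at 38.9, 216 and 0 FPKM.

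Transcript length moved with this difference. Other mRNA loci of up to 600 nt that reached 1 FPKM in a library had a median difference of 0.64 from E10.5 to E13.5 (n = 184), against 0.17 over all 12569 mRNA loci at that level. Histone loci are mostly short, and 45 of the 63 were of up to 600 nt. Among those at 1 FPKM or more in a library, the 39 short histone loci had a median of 1.12 and the 16 longer ones 0.95. The longer loci thus had a difference close to that of the short ones, and the part of length in the short ones was not tested. Within Hist1, the 22 loci of the group at lower coordinates had a median of 0.70 and the 28 at higher coordinates 1.16.

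**Figure D4:**
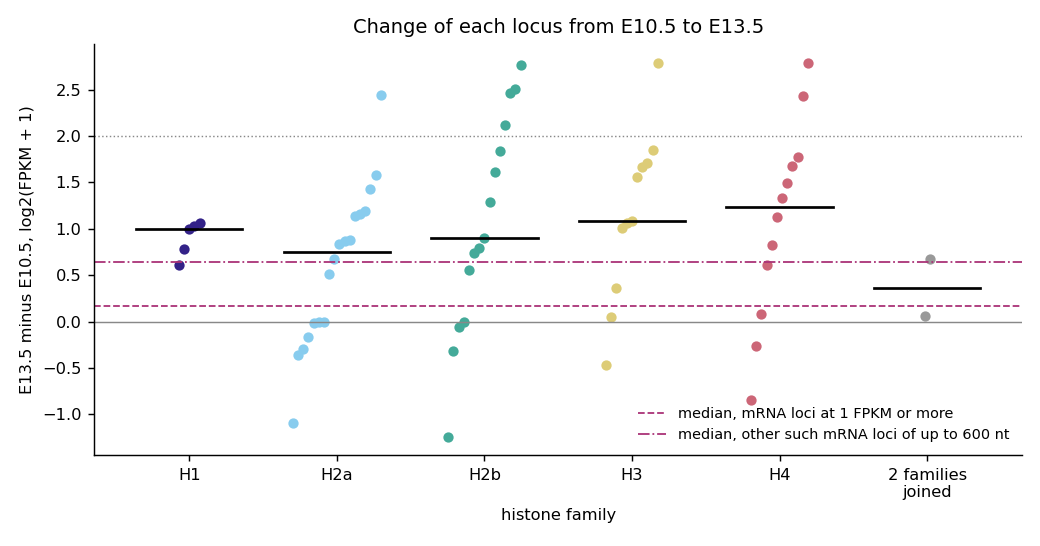
Difference of log2(FPKM + 1) between E13.5 and E10.5 for each locus, by family, with the family median as a black bar. The dotted line marks the limit of 2, the dashed line the median of mRNA loci at 1 FPKM or more (0.17) and the dash-dotted line that of other such loci of up to 600 nt (0.64), both of which lie under the medians of the 5 families.

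Loci with a RefSeq transcript running past the stem-loop held most of the summed histone FPKM left in adult ventricle. This held only with the joined Hist1h2bc/Hist1h2bg locus counted among them. The stem-loop lay close to the end, or just after it, in 41 loci, the transcript ended more than 100 bases past it in 14, and none was found in 8, of which 4 had one within 100 bases after the end. The 14 long-ended loci summed to 789 FPKM at E10.5, 1462 by E13.5 and 125 in adult ventricle, and the 41 to 5702, 13114 and 73.1 FPKM. The long-ended loci thus held 10.96% of the sum at E10.5 and 60.9% in adult ventricle, and the others with a stem-loop 79.2% and 35.5%. The median difference from E10.5 to the Adult was -2.64 for the 14 and -5.24 for the 41. None of the 14 was listed at 0 in adult ventricle, whereas 19 of the 41 were, but 17 of these 19 shared over 50% of their 100-base words with another member. Among the loci sharing at most 50%, 0 of 13 long-ended loci and 2 of 18 that ended near the stem-loop were listed at 0, with median differences of -2.74 and -5.62. The zeros therefore cannot be told apart from the assignment of reads to near-identical copies. The Adult share rested on 2 loci, Hist1h2bc/Hist1h2bg and Hist1h1c. Hist1h2bc/Hist1h2bg, at 61.1 FPKM, was classed as long-ended through the Hist1h2bg transcript alone, and its value cannot be divided between its genes. Without both loci, the long-ended loci held 22.1% of the remaining Adult sum of 103 FPKM, and those ending near the stem-loop 70.8%. The median difference of the long-ended loci was then -2.83 (a description added after the values were seen). Of the 9 loci at 5 FPKM or more in adult ventricle, 4 were long-ended, 4 ended near the stem-loop and 1 had none.

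A polyadenylation signal (AATAAA or ATTAAA) stood in the last 50 bases of a reference transcript at 11 of the 14 long-ended loci, 2 of the 41 and 3 of the 8, and at 10 of the 14 it stood in the long-ended transcript itself. Hist1h1c ended 840 bases past its stem-loop with such a signal. In the joined Hist1h2bc/Hist1h2bg locus, the Hist1h2bg transcript ended 156 bases past its stem-loop without one, and the signal stood in the Hist1h2bc transcript. Being long-ended did not go with a high Adult value in every case. Hist4h4 ended 2445 bases past its stem-loop and had 1.48 FPKM in adult ventricle, Hist1h4i 150 bases past with 0.633 FPKM, and Hist1h2ac 2010 bases past with 0.135 FPKM. Conversely, Hist1h4c and Hist1h4f had no reference sequence past the stem-loop and 13.9 and 7.34 FPKM in adult ventricle, although the assembly gave Hist1h4c a transcript ending 931 bases past it. The long-ended transcripts were also longer, with a median of 1290.5 nt against 405 nt, so end class and length cannot be told apart here. For 14 loci, the authors' assembly added a transcript running past the stem-loop. Most of these were classed as ending near it, among them Hist1h4c, Hist2h2bb/Hist2h3b (3356 bases past) and Hist1h4d/Hist1h4h. In adult ventricle the loci just named measured 13.9, 17.75 and 17.5 FPKM, of the 73.1 FPKM summed over the 41. For Hist1h4d/Hist1h4h, the 51506 bases past reach across the joined genes. End class thus describes the reference transcript alone, and where the RNA of these libraries ended was not tested.

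**Figure D5:**
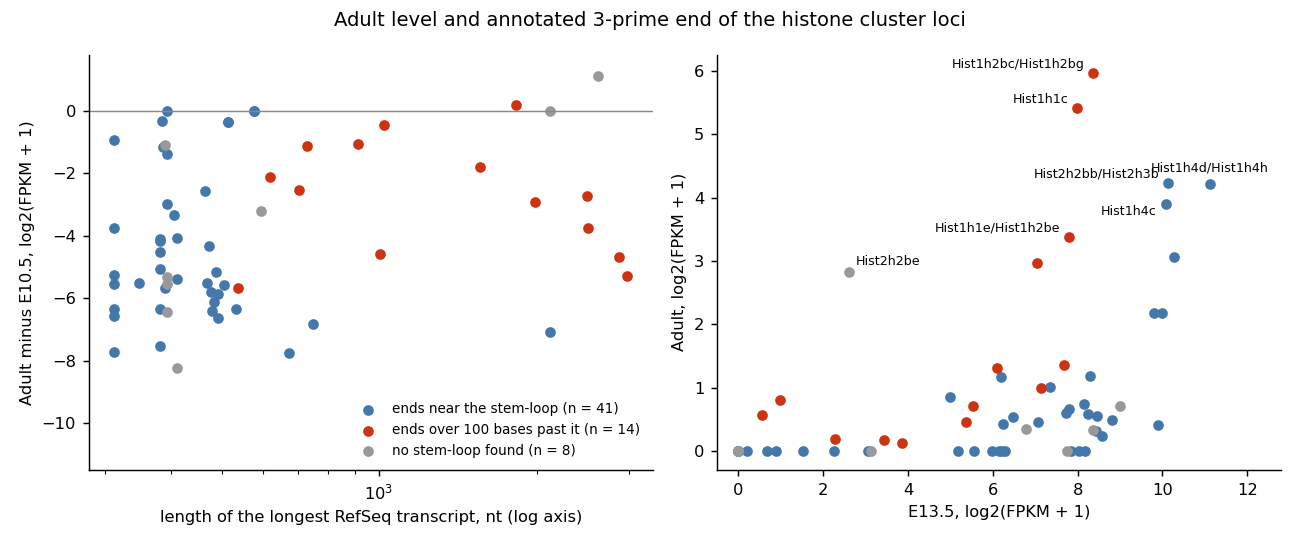
Left, difference of log2(FPKM + 1) between the Adult and E10.5 against the length of the longest RefSeq transcript on a log axis; right, Adult against E13.5 level; each point is 1 of the 63 loci, coloured by where its reference transcript ends. Long-ended loci (red) include Hist1h2bc/Hist1h2bg and Hist1h1c, the highest in adult ventricle at 61.1 and 41.5 FPKM. The first of these is classed by its Hist1h2bg transcript alone. Loci that end near the stem-loop (blue) include most of those at 0.

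How far the loci could be told apart by 100-base reads differed. Of the 63, 27 shared over 50% of their 100-base words with another member, 7 shared all and 8 shared none. The 7 that shared all were under 2 FPKM in every library, among them Hist1h2ad and Hist1h4n, so their low values cannot be told from the assignment of reads to a copy. Some loci named above for large differences also shared much. These were Hist1h3b with 93.9%, Hist1h2af with 65.3%, Hist1h2bl with 62.1% and Hist1h4b with 61.5%, and their values carry the same limit. In contrast, Hist3h2ba shared 4.80% and Hist3h2bb-ps 6.83%. Without the 27, 29 of the 36 left were lower past the limit from E10.5 to the Adult and 4 were higher from E10.5 to E13.5. Hist1h1a, Hist1h1b, Hist3h2a and Hist2h2be shared no word. Of the 63 loci, 31 had a reference transcript of the coding sequence alone.

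The promoters, 250 bases before to 50 after the start in RefSeq (GRCm38.p6), were found for 59 of 65 gene starts. Motifs were searched on both strands, no occurrences of different motifs overlapped, and a match describes the letters only. The letters TATAAA, the core of a TATA box, were anywhere in 59.3% of member promoters and 13.6% of all 32851 promoters of the table. They began 45 to 20 bases before the start, about where a TATA box lies, in 16 member promoters (27.1%) and 2.75% of all. CCAAT, the box bound by the factor NF-Y, was in 84.7% of member promoters and 37.4% of all. CCAAT was in all promoters of the H1 (6), H2a (16), H2b (15) and H3 (10) genes and in 3 of 12 of H4 genes. The octamer ATTTGCAT, which Oct1 binds in H2b genes, was in 7 of 16 H2a and 6 of 15 H2b promoters, in none of the other families, and in 1.74% of all. The windows of paired genes overlap, so these 13 promoters held 10 separate octamer sites, of which 3 were counted for both genes of a pair. The H1 box AAACACA was in 5 of 6 H1 promoters and 7.18% of all. The promoters of an H4 gene with no match, of Hist1h2bg, the gene with a matched promoter in the joined H2b locus, of Hist1h1c and of an H1 gene low in adult ventricle are printed below, with motifs in capitals.
Hist1h4b, chr13:23756687-23756986, plus strand: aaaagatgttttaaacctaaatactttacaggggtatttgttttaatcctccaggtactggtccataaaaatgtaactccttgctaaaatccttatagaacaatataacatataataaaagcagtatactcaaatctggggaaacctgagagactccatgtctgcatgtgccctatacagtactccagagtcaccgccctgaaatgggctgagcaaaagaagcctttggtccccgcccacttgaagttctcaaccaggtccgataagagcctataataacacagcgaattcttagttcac
Hist1h2bg, chr13:23571150-23571449, plus strand: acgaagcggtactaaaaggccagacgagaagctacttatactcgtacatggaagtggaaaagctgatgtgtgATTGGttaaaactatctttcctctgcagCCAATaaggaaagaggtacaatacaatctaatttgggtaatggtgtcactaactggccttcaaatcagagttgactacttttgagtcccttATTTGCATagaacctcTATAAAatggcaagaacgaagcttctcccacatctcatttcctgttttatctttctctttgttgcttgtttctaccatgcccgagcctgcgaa
Hist1h1c, chr13:23738557-23738856, plus strand: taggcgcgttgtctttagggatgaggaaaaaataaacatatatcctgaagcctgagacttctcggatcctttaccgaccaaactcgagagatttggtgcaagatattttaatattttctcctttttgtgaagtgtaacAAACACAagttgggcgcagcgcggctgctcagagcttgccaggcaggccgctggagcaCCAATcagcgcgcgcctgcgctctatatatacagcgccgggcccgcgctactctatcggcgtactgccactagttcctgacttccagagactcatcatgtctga
Hist1h1a, chr13:23763418-23763717, plus strand: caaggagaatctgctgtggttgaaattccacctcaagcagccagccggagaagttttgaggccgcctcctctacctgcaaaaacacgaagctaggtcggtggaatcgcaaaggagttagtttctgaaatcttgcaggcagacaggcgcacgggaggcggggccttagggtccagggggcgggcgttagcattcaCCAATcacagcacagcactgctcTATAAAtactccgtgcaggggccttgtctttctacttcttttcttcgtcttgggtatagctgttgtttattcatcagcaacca
Hist1h4b holds none of the 4 motifs, Hist1h2bg holds TATAAA as well as CCAAT and the octamer, Hist1h1c holds CCAAT and the H1 box, and Hist1h1a holds TATAAA and CCAAT. Hist1h1a is the only H1 gene of the 6 without the H1 box. The 5 with it include Hist1h1b and Hist1h1d, which were also low in adult ventricle.

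Genes that act with the histone clusters had smaller median differences between the stages. The 11 listed histone variant genes, none of them named for the clusters, had a median level of 39.2 FPKM at E10.5, 54.9 by E13.5 and 8.80 in adult ventricle. H3f3b, an H3.3 gene, measured 167, 323 and 75.1 FPKM, and H2afx, whose protein marks DNA breaks, measured 52.8, 55.7 and 1.26 FPKM. All 11 were lower in adult ventricle than in the E10.5 library, 4 of them past the limit. All 11 were higher at E13.5 as deposited, and 10 and 9 under the rescalings. In the Adult the 11 variants summed to 206.4 FPKM, about the sum of the 63 cluster loci, against 558 at E10.5.

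Of the 15 genes for histone transcription and 3′ processing, none passed the limit from E10.5 to the Adult, with medians of 21.8, 25.0 and 8.90 FPKM. Slbp, the stem-loop binding protein, measured 29.1, 49.98 and 8.90 FPKM, and Npat, the activator of histone genes, 13.3, 10.3 and 4.19 FPKM. Rnu7, the U7 RNA, was listed at 0, 0.446 and 0.0348 FPKM within a joined locus. The 16 histone chaperones measured had medians of 29.0, 29.3 and 10.1 FPKM, and 7 were lower past the limit, among them Chaf1b of the replication-coupled CAF-1 complex at 17.1, 24.3 and 0.474 FPKM. Of 14 S-phase genes, 13 were lower past the limit from E10.5 to the Adult, with medians of 48.6, 47.0 and 1.94 FPKM. The exception was Mcm6, whose locus is joined to another gene. From E10.5 to E13.5, the S-phase genes had a median difference of 0.08 against 0.90 for the histone loci. Under median-of-ratios scaling these were -0.05 and 0.77, and under equal mRNA sums -0.19 and 0.67.

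The 3 antisense loci were low in each library. The locus antisense to Hist1h3c measured 0.362 FPKM at E10.5, 0.312 by E13.5 and 1.37 in adult ventricle. The 2 loci antisense to the copies of Hist2h2aa1 measured 0.515, 0.979 and 0.9897 FPKM on the plus strand and 0.542, 0.835 and 0.546 FPKM on the minus strand. The Hist1h3c antisense locus was highest in adult ventricle, where Hist1h3c itself was at 0.247 FPKM after 105 at E10.5 and 346 at E13.5. The library kit keeps strand. Whether the mapping used it is not given in the sources used here, so reads of a gene and its antisense partner may not be fully told apart.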

How the data were processed

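Paired-end stranded total RNA libraries of 3 ventricle samples, 1 per stage, were analysed. According to the submitters' processing notes, reads were mapped to mm10 with TopHat and Bowtie and assembled with Cufflinks, with no versions given. The authors deposited 1 FPKM value per assembled locus and library and a transcript annotation, and counts were not used here. Members were the loci with a gene name of the Hist1 to Hist4 clusters. An mRNA locus held a transcript equal to a RefSeq mRNA (20115 loci). Members and gene lists were chosen with earlier results of these data known.

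Changes are differences of log2(FPKM + 1), with a limit of 2 and no test. Named loci were all joined and H1 loci, the 2 highest of each family, the 5 largest changes each way, the 5 highest in adult ventricle, Hist3 and Hist4 loci, and those listed at 0 in some libraries. H2a and H2b pairs, 3′ ends, shared words and the 2 subgroups of Hist1 were described by counts and examples, as were genes named for an extreme. End classes used the whole reference transcript and 50 bases after it. Depth was inferred from the commonest lowest values of unspliced loci of 1000 nt or more. 1 FPKM on 1 kb stood for about 13.8 fragments at E10.5, 26.7 by E13.5 and 19.0 in adult ventricle, the last without a clear step. Sequences came from RefSeq GRCm38. Python 3.11.15, pandas 2.3.3 and pysam 0.24.0 were used, and counting was tested on simulated data. Alternatives were other pseudocounts, scalings, filters, limits, windows and word lengths.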

Additional observations from a re-analysis of the deposited data

How the results depend on the processing

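Of 126 recomputed values, 103 kept their direction and size, 23 moved and 0 reversed. A pseudocount of 0.1 gave median differences of -5.86 from E10.5 to the Adult and -6.98 from E13.5 to the Adult, and 1 locus lower past the limit at E13.5. Equal mRNA sums gave a median of 0.67 between E10.5 and E13.5. With a limit of 1, 30 loci were higher at E13.5 (all mRNA loci 3.68%) and 2 lower (3.03%), and 1 was higher in adult ventricle than at E10.5 (9.23%). Without members sharing over 50% of their 100-base words, 4 were higher at E13.5, and 29 and 32 were lower in adult ventricle than in the E10.5 library and E13.5. With the 31 coding-only loci, an alternative chosen after seeing the data, the median was 1.17 from E10.5 to E13.5 and -6.43 from E13.5 to the Adult, with 25 and 26 lower in adult ventricle. Without joined loci, the H2b sum was 644 FPKM at E10.5 and 12.5 in adult ventricle, and the H4 sum 1367, 4401 and 25.2. In the Adult, 39 loci reached 0.1 FPKM and 9 reached 5 FPKM. The most frequent stem-loop form alone was at 23 loci. With the window to 100 bases after the end, 2 of 4 loci without a stem-loop were lower in adult ventricle than in the E10.5 library. Smaller counts in these settings follow in part from fewer loci, and other causes were not tested.

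No paired analysis was possible because only 1 library was made per stage, so also no replicate could be left out. Of the 63 loci, 23 were listed at 0 in adult ventricle and a further 23 rested on fewer than about 10 fragments by the approximate conversion. Comparisons with the Adult are imprecise for them. A listed 0 is an estimate, and 19 of the 23 at 0 shared over 50% of their 100-base words. FPKM of transcripts near the fragment length depends on the length model of the estimate.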
